A study of Homo sapiens with 12 samples.

Results

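The miR-148 and miR-152 family was followed by small RNA sequencing in human cell lines of acute myeloid leukemia (AML) that carry the internal tandem duplication of FLT3, namely MV4-11 and Molm-14. Its members were taken by name from the table of miRNA counts and are hsa-miR-148a-3p, hsa-miR-148a-5p, hsa-miR-148b-3p and hsa-miR-152-3p, 4 of the 1204 mature miRNAs in the table. The family was picked for its levels and composition in the cell lines, with its change after MPC1 deletion already known, so levels by line are given as a description and no test is made of them. All 4 members passed the filter on low counts, which left 659 miRNAs to test. The remaining arms of the same hairpins, hsa-miR-148b-5p and hsa-miR-152-5p, were also counted and are described beside the members.

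Each cell line was sequenced as Empty Vector (EV) control cells and as MPC1 KO cells, with 3 libraries in each of the 4 groups and 12 in all. The MPC1 KO cells had been made with a lentiviral CRISPR/Cas9 construct that carries GFP for selection and 1 guide against MPC1, the gene of 1 subunit of the carrier that brings pyruvate into mitochondria. The EV cells were their nontargeting controls, and no second guide was used as a check on the first. MPC1 mRNA is not read by small RNA libraries, so the deletion was not checked here. The paper itself reports fewer MPC1 transcripts by qPCR and lower basal respiration in the MPC1 KO cells of both lines. Nothing in the sources says whether separate cultures gave the 3 libraries of a group, and p-values then measure only the spread between libraries.

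The table holds raw counts, the number of reads assigned to each mature miRNA. Totals ran from 3870104 to 8683456 counts per library, with a median of 5107200.5. Levels are given as CPM, counts scaled to a common library total after TMM scaling, whose factors lay between 0.940 and 1.08. Values of cell type markers are the exception, scaled by library totals alone without TMM factors. The blood markers hsa-miR-223-3p, hsa-miR-142-3p, hsa-miR-142-5p and hsa-miR-155-5p were each at 2533 CPM or more in all 12 libraries. The fifth marker of that list, hsa-miR-181a-5p, reached at most 8 counts in a library. It has 2 loci in the reference table, and how reads with several matches were counted is not given in the sources. The markers of erythroid cells, liver, muscle, neurons and pancreatic islet summed to at most 37.2 CPM for each list in any library. For muscle, only 1 of the 2 markers was in the table. The epithelial markers summed higher, from 122 CPM in a Molm-14 EV library to 447 CPM in an MV4-11 MPC1 KO library.

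A miRNA guides the silencing complex to messenger RNAs that pair with its seed, bases 2 to 8 counted from its 5′ end. Each hairpin can give a 5p and a 3p arm, of which 1 is usually kept and the other mostly degraded. miR-148a, miR-148b and miR-152 come from separate hairpins and share the seed of their 3p arms, so their predicted targets largely coincide. The family is known for repressing the DNA methyltransferase DNMT1, and its members are often reduced in tumors, where the promoters of miR-148a and miR-152 can be methylated.

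The 3p arms are shown because the family is defined by the 7 bases in capitals, the seed, and because the bases that follow are what separates reads of the 3 members in a count table. The sequences are those of RefSeq for GRCh38.p14, written 5′ to 3′.
hsa-miR-148a-3p: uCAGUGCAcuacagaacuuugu
hsa-miR-148b-3p: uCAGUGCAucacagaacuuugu
hsa-miR-152-3p: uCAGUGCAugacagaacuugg
Counted from 1 at the 5′ end, hsa-miR-148b-3p differs from hsa-miR-148a-3p by C9U and U10C, with the same base at 20 of 22 positions. hsa-miR-152-3p differs from hsa-miR-148a-3p by C9U, U10G and U20G over the 21 positions they share, and from hsa-miR-148b-3p by C10G and U20G. The closest pair is therefore told apart by 2 adjacent bases just after the seed. Reads with an error at these positions could be assigned to another member, and how the counting treated mismatches is not given in the sources used here.

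The 5p arms are shown with the same positions in capitals, since they carry other seeds than the 3p arms and differ from each other there.
hsa-miR-148b-5p: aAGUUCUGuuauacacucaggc
hsa-miR-152-5p: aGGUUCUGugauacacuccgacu
The member hsa-miR-148a-5p is named only.

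The hairpins lie on 3 chromosomes of GRCh38.p14. MIR148A, at chr7:25949919-25949986 on the minus strand, sits in an intron of a long non-coding RNA gene (ENSG00000270933) of the same strand, and the nearest protein-coding gene, NFE2L3, is 202212 bases away. hsa-miR-148a-3p itself occupies chr7:25949922-25949943. MIR148B, at chr12:54337216-54337314 on the plus strand, lies within an intron of COPZ1 in the same direction, with its 3p arm at chr12:54337278-54337299. MIR152, at chr17:48037161-48037247 on the minus strand, lies within an intron of COPZ2 in the same direction, with its 3p arm at chr17:48037174-48037194. COPZ1 and COPZ2 encode paralogous subunits of the COPI vesicle coat. Each of the 5 mature sequences shown matched the primary chromosomes exactly once, so no arm shown has a second identical locus to share its reads with.

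hsa-miR-148a-3p held nearly all reads of the family in both lines. In MV4-11 its level was 94664, 84031 and 85655 CPM in the EV libraries and 85920, 92404 and 86525 CPM in the MPC1 KO libraries. In Molm-14 it was 140386, 199141 and 156449 CPM in EV and 133162, 189663 and 137788 CPM in MPC1 KO. Every Molm-14 library was above every MV4-11 library, and within each line the EV and MPC1 KO libraries overlapped. It was the second most abundant miRNA in all 6 MV4-11 libraries, behind hsa-miR-21-5p, and the most abundant in 5 of the 6 Molm-14 libraries. The exception was Molm-14 EV library 1, in which hsa-miR-21-5p led.

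**Figure D1:**
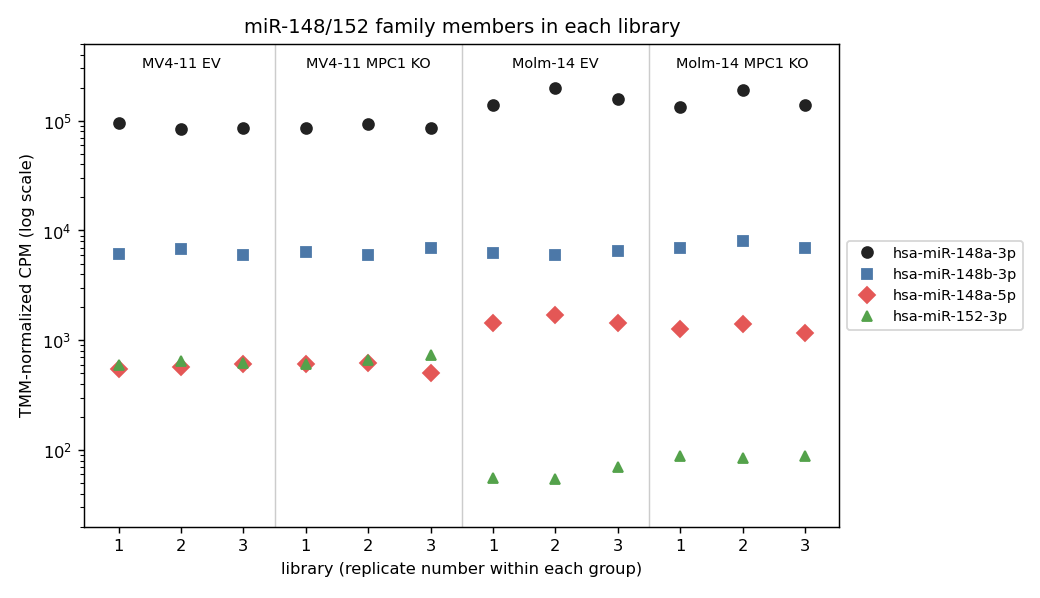
TMM-normalized CPM of the 4 members in each of the 12 libraries, on a log scale, with 1 point per library and member and the groups separated by vertical lines. hsa-miR-148a-3p is the highest point in every library, and hsa-miR-152-3p falls from the level of hsa-miR-148a-5p in MV4-11 to far below it in Molm-14.

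As a share of all counted reads, hsa-miR-148a-3p made up between 8.48% and 10.01% of an MV4-11 library and between 13.4% and 19.3% of a Molm-14 library. These shares and ranks are among the reads that were assigned, and some miRNAs with more than 1 locus in the reference table had few. hsa-miR-16-5p, with 2 loci, had a mean of 110.0 counts over the 12 libraries, hsa-miR-24-3p 13.1 and hsa-miR-26a-5p 17.3, against 624857 for hsa-miR-148a-3p. These 3 were chosen after their values were seen, and hsa-let-7a-5p, with 3 loci, had 732.5. The median count was 14.5 for the 34 miRNAs with 2 loci and 8.71 for the 1030 with 1. At such low counts the medians say little about abundant miRNAs with several loci. The treatment of reads with several matches is not given in the sources used here, and its part in the shares and ranks was not tested.

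hsa-miR-148b-3p was the second most abundant arm of the family and had nearly the same level in both lines. In MV4-11 it was at 6051, 6746 and 5944 CPM in EV and at 6322, 6035 and 6988 CPM in MPC1 KO. In Molm-14 it was at 6244, 5965 and 6515 CPM in EV and at 6930, 8061 and 6999 CPM in MPC1 KO. The EV libraries of the lines overlapped, and the highest level of the 12 was in Molm-14 MPC1 KO library 2.

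hsa-miR-148a-5p, the less abundant arm of the miR-148a hairpin, was at 545.8, 575.2 and 602.1 CPM in MV4-11 EV and at 607.3, 621.8 and 500.2 CPM in MV4-11 MPC1 KO. In Molm-14 it was at 1435, 1692 and 1437 CPM in EV and at 1264, 1399 and 1161 CPM in MPC1 KO. All Molm-14 libraries exceeded all MV4-11 libraries, as they did for the other arm of the hairpin, and within Molm-14 every MPC1 KO library lay below every EV library.

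hsa-miR-152-3p followed the opposite order. In MV4-11 it was at 590.6, 642.5 and 619.9 CPM in EV and at 609.6, 667.8 and 727.4 CPM in MPC1 KO, from between 2589 and 4852 counts per library. In Molm-14 it was at 55.9, 55.0 and 70.2 CPM in EV and at 88.5, 83.8 and 88.9 CPM in MPC1 KO, from between 206 and 492 counts. Every Molm-14 library was below every MV4-11 library, and every Molm-14 MPC1 KO library was above every Molm-14 EV library. In MV4-11 the EV and MPC1 KO libraries overlapped.

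Comparing the EV cells of the lines, hsa-miR-148a-3p was 1.88-fold higher in Molm-14 (log2 fold change 0.91, with a standard error, SE, of 0.13) and hsa-miR-148a-5p 2.65-fold higher (1.41, SE 0.11). The level of hsa-miR-148b-3p differed by −0.0013 on the log2 scale (SE 0.10, 95% confidence interval −0.20 to 0.20). hsa-miR-152-3p had 0.0978 times its MV4-11 level in Molm-14 EV cells, a log2 fold change of −3.35 (SE 0.11). Ordered from the lowest log2 fold change, it was number 22 of the 659 miRNAs tested, whereas hsa-miR-148b-3p was number 317. The lines thus differed by member, upward for both arms of miR-148a, downward for miR-152 and within the spread of the libraries for miR-148b.

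The passenger arms kept the order of their hairpins. hsa-miR-148b-5p was at 122 ± 7.51 CPM (SD, n = 3) in MV4-11 EV and at 123 ± 6.63 (SD, n = 3) in Molm-14 EV, a log2 fold change of 0.010 (SE 0.10). hsa-miR-152-5p was at 9.92 ± 1.43 CPM (SD, n = 3) in MV4-11 EV, from 35 to 92 counts, and at 1.79 ± 0.351 (SD, n = 3) in Molm-14 EV, from 6 to 11 counts, a log2 fold change of −2.45 (SE 0.32). Both arms of miR-152 were thus lower in every Molm-14 EV library than in every MV4-11 EV library, and neither arm of miR-148b was.

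Within the family, shares of raw counts describe the members without any scaling between libraries. A share also depends on the other members, so that of hsa-miR-148b-3p differed between the lines although its level was nearly the same. hsa-miR-148a-3p held 92.2% ± 0.804 (SD, n = 3) of the counts of the 4 members in MV4-11 EV and 95.4% ± 0.782 (SD, n = 3) in Molm-14 EV. hsa-miR-148b-3p held 6.56% ± 0.709 (SD, n = 3) and 3.69% ± 0.707 (SD, n = 3), and hsa-miR-152-3p 0.649% ± 0.0615 (SD, n = 3) and 0.0357% ± 0.00825 (SD, n = 3). miR-152 was thus a minor member in both lines and by far the rarest in Molm-14. In MPC1 KO cells the share of hsa-miR-148a-3p was 92.0% ± 0.664 (SD, n = 3) in MV4-11 and 94.6% ± 0.565 (SD, n = 3) in Molm-14, overlapping with EV in each line.

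For each read of hsa-miR-152-3p, the MV4-11 EV libraries held 160, 131 and 138 reads of hsa-miR-148a-3p, and the Molm-14 EV libraries 2512, 3622 and 2229. In MPC1 KO cells the ratio was 141, 138 and 119 in MV4-11 and 1505, 2262 and 1550 in Molm-14. The lines did not overlap, whereas within Molm-14 the EV and MPC1 KO libraries met, since EV library 3 had a lower ratio than MPC1 KO library 2. For each read of hsa-miR-148b-3p there were 22.5, 33.4 and 24.01 reads of hsa-miR-148a-3p in Molm-14 EV and 12.5 to 15.6 in MV4-11 EV.

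**Figure D2:**
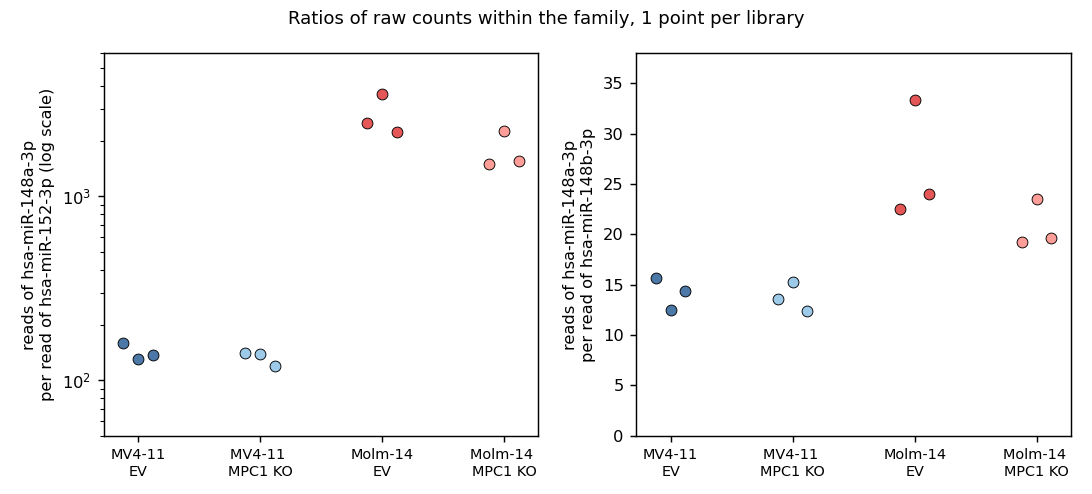
Reads of hsa-miR-148a-3p per read of hsa-miR-152-3p (left, log scale) and per read of hsa-miR-148b-3p (right, linear scale) in each library, from raw counts, with 1 point per library in the 4 groups. In the left panel the Molm-14 libraries lie at 1505 or more and the MV4-11 libraries at 160 or less, and in both panels the second Molm-14 EV library has the highest ratio.

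The summed level of the 4 members was 95556 ± 5468 CPM (SD, n = 3) in MV4-11 EV and 95976 ± 3312 (SD, n = 3) in MV4-11 MPC1 KO. For Molm-14 EV cells it was 173148 ± 30312 CPM (SD, n = 3), and MPC1 KO cells had 162230 ± 32105 CPM (SD, n = 3). The sum followed hsa-miR-148a-3p, and the low level of miR-152 in Molm-14 had little weight in it. As a share of all counts, the family took 9.61% ± 0.312 (SD, n = 3) of an MV4-11 EV library and 16.6% ± 3.04 (SD, n = 3) of a Molm-14 EV library.

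The 5p arm was the minor product of every hairpin. It gave 0.650% ± 0.0674 (SD, n = 3) of the reads of the miR-148a hairpin in MV4-11 EV and 0.921% ± 0.0853 (SD, n = 3) in Molm-14 EV, with no overlap between the lines. For miR-148b it gave 1.92% ± 0.110 (SD, n = 3) in MV4-11 EV and 1.94% ± 0.0653 (SD, n = 3) in Molm-14 EV. In MV4-11 MPC1 KO the miR-148b value was 1.604% ± 0.137 (SD, n = 3), with all 3 libraries below the EV libraries, and in Molm-14 MPC1 KO it was 1.92% ± 0.0853 (SD, n = 3). For miR-152 the 5p arm gave 1.59% ± 0.264 (SD, n = 3) in MV4-11 EV and 2.93% ± 0.798 (SD, n = 3) in Molm-14 EV, the latter from at most 11 counts of that arm in a library.

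The members also differed in how closely replicate libraries agreed. The coefficient of variation of hsa-miR-148a-3p was 6.50% in MV4-11 EV and 4.06% in MV4-11 MPC1 KO, but 18.4% for Molm-14 EV cells and 20.4% for Molm-14 MPC1 KO cells. In the same Molm-14 groups the median over the 139 miRNAs with a mean of at least 1000 counts was 8.53% and 5.04%. Replicate 2 had the highest level of hsa-miR-148a-3p in both Molm-14 groups. hsa-miR-148b-3p varied by between 4.41% and 8.65% in the 4 groups and hsa-miR-152-3p by between 3.21% and 14.1%. Of the 4 members, the most abundant therefore varied most between libraries in both Molm-14 groups, although it had more counts than any other member.

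The comparison of MPC1 KO with EV asked which miRNAs changed when pyruvate import into mitochondria was disrupted. It was tested with edgeR's quasi-likelihood test on all 659 miRNAs, with Benjamini-Hochberg adjustment over them and a threshold of 0.05. In MV4-11, 0 of the 4 members passed (0 of 4 also at an unadjusted p under 0.05, and 0 with DESeq2 or limma-voom), where 3.03% of all miRNAs tested were called. The log2 fold changes were 0.0027 for hsa-miR-148a-3p (SE 0.13, 95% confidence interval −0.27 to 0.28), 0.0055 for hsa-miR-148a-5p (−0.21 to 0.22), 0.046 for hsa-miR-148b-3p (−0.15 to 0.25) and 0.11 for hsa-miR-152-3p (−0.093 to 0.32). The libraries of EV and MPC1 KO overlapped for each of the 4.

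In Molm-14, 1 of the 4 members passed, hsa-miR-152-3p, where 6.83% of all miRNAs were called (3 of 4 at an unadjusted p under 0.05, with hsa-miR-148a-5p and hsa-miR-148b-3p, and 1 with DESeq2 or limma-voom). Since the family was chosen with this result known, the count describes the fit and is no independent support. All shares called are at the adjusted threshold. The share of all miRNAs at an unadjusted p under 0.05 is not given here, so counts at an unadjusted p, such as the 3 of 4, cannot be weighed. hsa-miR-152-3p rose from 60.4 ± 8.53 CPM (SD, n = 3) in EV to 87.1 ± 2.80 (SD, n = 3) in MPC1 KO, a 1.44-fold difference (log2 fold change 0.53, SE 0.11, adjusted p = 0.00260 in the quasi-likelihood test of edgeR). After this rise its level was still far below the 618 ± 26.0 CPM (SD, n = 3) of MV4-11 EV cells. Its other arm, hsa-miR-152-5p, had 11, 6 and 7 counts in EV and 9, 23 and 11 in MPC1 KO, too few to measure such a difference (log2 fold change 0.63, SE 0.38, adjusted p = 0.387 from the same edgeR test).

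Scaled by library totals without TMM factors, summed levels of 2 marker lists were also higher in Molm-14 MPC1 KO libraries than in EV. Whether the ranges below stay apart with TMM factors was not tested. The 4 epithelial markers summed to between 122 and 142 CPM in Molm-14 EV and between 146 and 168 CPM in MPC1 KO. In MV4-11 they summed to between 339.9 and 367 CPM in EV and between 417 and 447 CPM in MPC1 KO, again without overlap, where hsa-miR-152-3p overlapped and did not pass. hsa-miR-205-5p of that list had at most 2 counts in any library, and hsa-miR-200c-3p was its most abundant member, with at least 100.5 CPM. The 5 blood markers summed to between 77861 and 84899 CPM in Molm-14 EV and between 98362 and 104667 CPM in MPC1 KO, and their ranges overlapped in MV4-11, at 68105 to 74974 CPM in EV and 71572 to 74487 CPM in MPC1 KO. The part of either list in the result was not tested.

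The remaining members missed the threshold in Molm-14. hsa-miR-148a-5p had a log2 fold change of −0.25 (SE 0.10, adjusted p = 0.149 from the edgeR test) with every MPC1 KO library below EV, and hsa-miR-148b-3p one of 0.23 (SE 0.10, adjusted p = 0.166) with every MPC1 KO library above EV. For hsa-miR-148a-3p the log2 fold change was −0.11 (SE 0.13, adjusted p = 0.742, 95% confidence interval −0.38 to 0.17). Its sign rests on single libraries, since it was 0.082 without Molm-14 EV library 2, the highest of its group, and 0.0040 without Molm-14 MPC1 KO library 1, the lowest of its group. The miR-148a hairpin therefore gave no change that passed in Molm-14, in either arm. How many of all miRNAs tested separate EV from MPC1 KO libraries was not counted, so such separation is only a description for every arm.

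**Figure D3:**
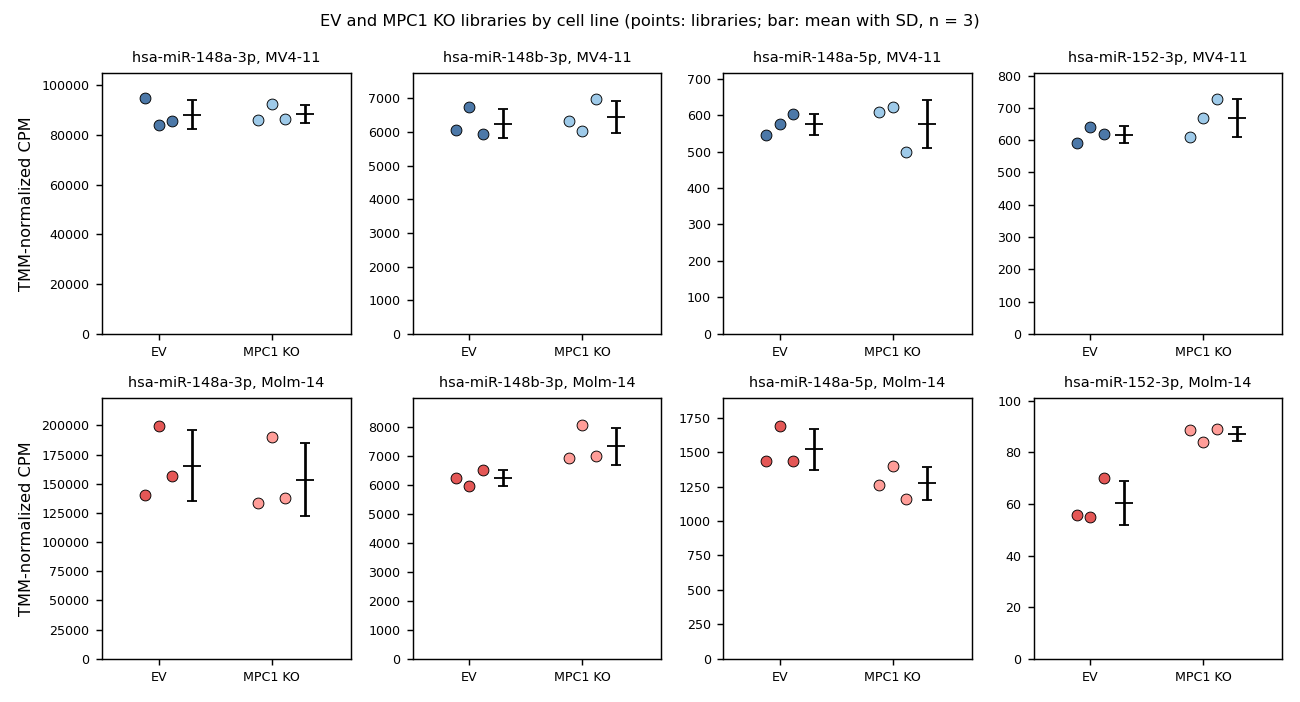
TMM-normalized CPM of the 4 members in EV and MPC1 KO libraries of MV4-11 (top) and Molm-14 (bottom), on linear axes from 0 with their own scale, with 1 point per library and the mean with its SD (n = 3) beside them. hsa-miR-152-3p in Molm-14 separates the groups, with EV libraries at most 70.2 and MPC1 KO libraries at least 83.8 CPM.

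Whether MPC1 KO acted differently in the lines was tested as the difference between the effects, Molm-14 minus MV4-11, for which 6.68% of all miRNAs were called and 0 of the 4 members (1 at an unadjusted p under 0.05, hsa-miR-152-3p, and 0 with DESeq2 or limma-voom). For hsa-miR-152-3p the difference was 0.41 on the log2 scale (SE 0.15, adjusted p = 0.121, 95% confidence interval 0.10 to 0.72). The rise of hsa-miR-152-3p in Molm-14 is therefore not shown to be particular to that line. With upper-quartile scaling this difference was 0.60 and passed (adjusted p = 0.0183 from edgeR), a scaling that also moved the median difference of all miRNAs to 0.181. The other members had differences of −0.11 for hsa-miR-148a-3p, −0.26 for hsa-miR-148a-5p and 0.19 for hsa-miR-148b-3p, with adjusted p of 0.818, 0.332 and 0.498 from the same edgeR test.

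hsa-miR-148b-5p gave values of opposite sign in the lines. It was at 126.6, 126.9 and 113.7 CPM in MV4-11 EV and at 107.6, 103.9 and 102.6 CPM in MV4-11 MPC1 KO, all lower. In Molm-14 it was at 118.6, 120.6 and 130.9 CPM in EV and at 136.1, 151.0 and 143.5 CPM in MPC1 KO, all higher. The log2 fold changes were −0.23 in MV4-11 (SE 0.10, adjusted p = 0.329 from the edgeR test) and 0.22 in Molm-14 (SE 0.10, adjusted p = 0.250), and neither passed. Their difference was 0.44 (SE 0.15, adjusted p = 0.0804 from the edgeR test).

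**Figure D4:**
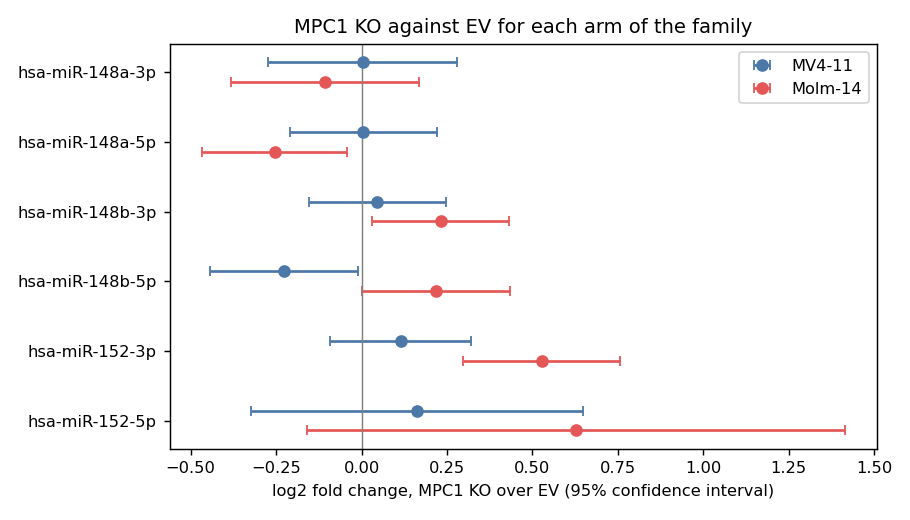
Log2 fold change of MPC1 KO over EV for the 6 arms of the family in MV4-11 (blue) and Molm-14 (red), from edgeR's fit on all miRNAs, with bars for the 95% confidence interval. The interval of hsa-miR-152-3p in Molm-14, 0.30 to 0.76, lies farthest from 0, and that of hsa-miR-152-5p, with its low counts, is the widest.

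Among the 1068 of 1204 miRNAs with a reference sequence, 4 had bases 2 to 7 equal to bases 3 to 8 of the family's 3p arms. They share 1 seed and belong to the group of miR-130, miR-301 and miR-454. hsa-miR-130a-3p of that group was not among them, and relatives without a reference sequence could not be found this way. The most abundant of them and a relative are shown, with bases 2 to 8 in capitals, to make the shift by 1 base visible.
hsa-miR-454-3p: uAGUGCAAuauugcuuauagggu
hsa-miR-130b-3p: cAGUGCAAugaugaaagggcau
In all, hsa-miR-454-3p, hsa-miR-130b-3p, hsa-miR-301a-3p and hsa-miR-301b-3p summed to 569 ± 74.2 CPM (SD, n = 3) in MV4-11 EV and to 375 ± 41.4 (SD, n = 3) in Molm-14 EV, far below the family. Their log2 fold changes between the EV cells were all negative, from −1.71 to −0.34. After MPC1 KO, 0 of the 4 passed in edgeR in either line or for the difference, as did 0 at an unadjusted p under 0.05 and 0 with DESeq2 or limma-voom. Beside shares called of 3.03%, 6.83% and 6.68% over all miRNAs, a count of 0 among 4 says little. Their median log2 fold change was 0.0064 in MV4-11 and 0.14 in Molm-14, beside −0.0035 and −0.013 over all miRNAs tested.

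Besides the family, 8 miRNAs known to repress DNA methyltransferases were counted, of which 7 passed the filter on low counts. The eighth, hsa-miR-29b-3p, has 2 loci in the reference table and reached at most 3 counts. In MV4-11, 0 of the 7 passed the threshold in edgeR (2 at an unadjusted p under 0.05, hsa-miR-143-3p and hsa-miR-101-3p, and 0 with DESeq2 or limma-voom), with hsa-miR-143-3p closest to it (log2 fold change −0.33, adjusted p = 0.0674 from the edgeR test). In Molm-14, hsa-miR-101-3p rose from 274 ± 56.1 CPM (SD, n = 3) to 403 ± 40.4 (SD, n = 3), a log2 fold change of 0.56 (SE 0.12, adjusted p = 0.00444). hsa-miR-143-3p fell there from 179 ± 15.3 CPM (SD, n = 3) to 97.4 ± 2.03 (SD, n = 3), a log2 fold change of −0.88 (SE 0.10, adjusted p = 3.74e-06). These were also the ones whose effects differed between the lines, by 0.84 for hsa-miR-101-3p (adjusted p = 0.00499 from the edgeR test) and by −0.55 for hsa-miR-143-3p (adjusted p = 0.0243). In Molm-14 the list therefore held 1 rise, 1 fall and 5 that did not pass, beside 6.83% of all miRNAs called, and the shares called were 3.03% in MV4-11 and 6.68% for the difference. With 7 miRNAs, nothing particular to the list is read from these counts.

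The miRNAs whose levels ran most alike with each member were found by the root-mean-square distance between log2 CPM profiles over the 12 libraries, each centred on its mean, among 279 miRNAs with a mean of at least 100 counts. Nearest to hsa-miR-148a-3p were hsa-miR-32-3p (0.147), hsa-miR-331-3p (0.172) and hsa-miR-7-1-3p (0.178), and nearest to hsa-miR-148a-5p were hsa-miR-26a-2-3p (0.156), hsa-miR-3613-5p (0.175) and hsa-miR-142-3p (0.181). hsa-miR-148b-3p ran closest to hsa-miR-140-3p (0.0834), hsa-miR-15b-5p (0.119) and hsa-miR-107 (0.121). Nearest to hsa-miR-152-3p were hsa-miR-760 (0.197), hsa-miR-200a-3p (0.309) and hsa-miR-192-5p (0.340), all lower in Molm-14. Its own centred profile also varied most, with a root-mean-square of 1.59. That value was 0.451 for hsa-miR-148a-3p, 0.653 for hsa-miR-148a-5p and 0.125 for hsa-miR-148b-3p. The distances are not scaled to it, so they do not rank the members by how closely they are followed. For comparison, the arms of the miR-148a hairpin were 0.258 apart, those of miR-148b 0.138, and hsa-miR-148a-3p and hsa-miR-152-3p 2.01. The distances are a description, and all miRNAs compared share the same 12 libraries with their depths and TMM factors.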

How the data were processed

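RNA was extracted with the miRNeasy kit and small RNA libraries were made with the NEBNext kit. The authors deposited raw counts of reads per mature miRNA for each library. Their processing notes name STAR 2.5.2, featureCounts 1.5.1 and GRCh38 without saying which step made the miRNA counts. The 12 libraries were assigned to groups from the sample labels. In R 4.3.3, edgeR 4.0.16 filtered miRNAs by filterByExpr at a minimum count of 10, scaled libraries by TMM and fitted the 4 groups by robust quasi-likelihood with 8 residual degrees of freedom. The 659 miRNAs kept held at least 99.97% of each library's counts. Standard errors were derived from each F statistic and its log2 fold change. Alternatives used DESeq2 1.42.0, limma-voom (limma 3.58.1), other scalings, filters on low counts, each cell line alone, replicate number as a block, and leaving out each library. The fit was tested on simulated data. Replicates of a group differed by more than sampling noise, with a chi-square per degree of freedom between 12.3 and 167. Intervals cover the spread between libraries as fitted.

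The members and lists were chosen with earlier results of these data known. Named are the members, the remaining arms of their hairpins, miRNAs with a seed shifted by 1 base, 8 miRNAs known to repress DNA methyltransferases, cell type markers, and the 3 miRNAs nearest to each member by profile distance. Sequences were matched by name to RefSeq for 1068 of 1204 miRNAs and 5 of the 6 arms. Genes around the hairpins came from GENCODE annotation of GRCh38.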

Additional observations from a re-analysis of the deposited data

Results flagged for a closer look

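hsa-miR-148b-5p was flagged because every MV4-11 MPC1 KO library lay below every MV4-11 EV library while every Molm-14 MPC1 KO library lay above every Molm-14 EV library. The flag looks for this pattern, so the pattern is no independent support. How many of all miRNAs tested show it was not counted. The difference of its effects, Molm-14 minus MV4-11, was 0.44 on the log2 scale (standard error 0.15, 95% confidence interval 0.14 to 0.75) and missed the threshold, with an adjusted p of 0.0804 from edgeR's quasi-likelihood test. It passed in 3 of 9 other settings, with adjusted p up to 0.195 in the rest. The 3 were DESeq2 (adjusted p = 0.0467), upper-quartile scaling (0.0151) and a filter at a mean of 100 counts (0.0485). Upper-quartile scaling also moved the median difference of all miRNAs to 0.181. Of 12 edgeR fits that each left out a library, 1 passed, without MV4-11 EV replicate 3 (0.0410), with adjusted p up to 0.193 in the others. The more abundant arm of the hairpin, hsa-miR-148b-3p, had a difference of 0.19 (standard error 0.14).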

How the results depend on the processing

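hsa-miR-152-3p in Molm-14 kept its rise past the threshold under all 10 alternatives (log2 fold change 0.52 to 0.60) and without each of the 12 libraries (0.48 to 0.66, adjusted p up to 0.0210 from edgeR). Of the members' knockout effects, 109 of 116 values from other settings and 133 of 144 from leaving out a library kept their sign and side of the threshold. Upper-quartile scaling moved the median of all miRNAs to −0.117 in MV4-11. It gave 1 member past the threshold for the difference, hsa-miR-152-3p, and MV4-11 values of −0.11 for hsa-miR-148a-3p, −0.10 for hsa-miR-148a-5p and −0.063 for hsa-miR-148b-3p. It also gave a difference of 0.075 for hsa-miR-148a-3p and a summed level of 102417 CPM in MV4-11 EV. Fitting each line alone gave −0.031 for hsa-miR-148a-3p and −0.029 for hsa-miR-148a-5p in MV4-11. Leaving out libraries gave −0.044 to 0.070, −0.27 to 0.082 and −0.27 to 0.012 for hsa-miR-148a-3p in MV4-11, in Molm-14 and for the difference, −0.066 to 0.080 for hsa-miR-148a-5p and −0.035 to 0.12 for hsa-miR-148b-3p in MV4-11. With 3p arms only, the share of hsa-miR-148a-3p was 96.2% for Molm-14 EV and 95.3% for Molm-14 MPC1 KO, since the 5p arm leaves the denominator. Total counts gave a summed level of 101498 CPM in MV4-11 MPC1 KO. Totals without hsa-miR-148a-3p, chosen after seeing the data, gave 106258 CPM in MV4-11 EV and 111542 CPM in MV4-11 MPC1 KO. The cause of these changes was not tested. Correlations of same-numbered deviations ran from −0.127 to 0.116, and with 3 libraries per group they cannot exclude a pairing by replicate number. In both Molm-14 groups replicate 2 differed most from the other libraries. Chi-square per degree of freedom was 77.5 or more in pairs with it and 25.2 or less without it. The standard error of hsa-miR-148a-3p in Molm-14 was 0.092 with replicate number as a block and 0.13 without. With replicate number as a block, 23, 52 and 34 miRNAs were called in MV4-11, Molm-14 and for the difference, against 20, 45 and 44, the members past the threshold were 0, 1 and 0, and hsa-miR-152-3p in Molm-14 had a log2 fold change of 0.54. The depth limits hsa-miR-152-5p, with 6 to 23 counts in Molm-14.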
